A study of Arabidopsis thaliana with 40 samples.

Results

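UFO (UNUSUAL FLORAL ORGANS, AT1G30950) and PUCHI (AT5G18560) are 2 Arabidopsis thaliana genes that act in the young flower. They were picked by probe set, with earlier results of these arrays known, and stand for 2 of the 22746 probe sets tested, or 2 of the 13350 genes that a probe set of their own names. Each was followed over all 20 groups of genotype and day, with 2 arrays in each group and 40 arrays in all. The arrays were Affymetrix ATH1 arrays, on which a probe set is the group of short probes that reads 1 transcript.

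UFO is an F-box protein. It is a subunit of a ubiquitin ligase and also a partner of the transcription factor LEAFY (LFY), with which it switches on petal and stamen identity genes in the floral meristem, the group of dividing cells that forms 1 flower. PUCHI is a transcription factor of the AP2/ERF family that acts in very young floral meristems, where it helps to give them floral identity and to restrain the bract, and it also acts in lateral root primordia. Both act in young floral meristems, but the signal of a bulk apex does not show which of its meristems it comes from. In a bulk sample more cells of a type and more RNA per cell cannot be told apart either.

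All plants had grown at 21 °C for 30 short days, with 9 h light and 15 h dark, before the move to long days of 16 h light and 8 h dark. RNA came from shoot apices taken on the day of the move (day 0) and 3, 5 and 7 days later. Col is the Columbia wild type (Col-0), and lfy-12 is a mutant of LFY. Ler is the accession Landsberg erecta, co-2 is a mutant of CONSTANS (CO), which reads day length in the leaf, and ft-2 is a mutant of FLOWERING LOCUS T (FT), the signal that moves from leaf to apex. The labels do not give the background of the mutants. From knowledge of the alleles, lfy-12 was set against Col, and co-2 and ft-2 against Ler, a line that also carries the erecta mutation. Apices left in short days beyond day 0 were not analysed here, so age and day length changed with the day of sampling and cannot be told apart. The annotation names no probe set for LFY, CO or FT, so the mutant labels could not be checked on their own genes.

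The 2 arrays of a group correlated at 0.990 to 0.997 (across probe sets, which are not independent replicates), and the log2 median of an array was 6.91 to 7.07. On 3 of the 40 arrays, transcripts that separate Columbia from Landsberg erecta were found at 8.44% (lfy-12 day 5 array 2), 6.10% (co-2 day 3 array 1) and 4.2% (ft-2 day 0 array 1) of the level seen in the opposite background. For the remaining 37 arrays this share was -1.02% to 0.966%. Results that rest on those 3 arrays are given with and without them where the call differed. The labels do not say whether the 2 arrays of a group came from separate plants, so the spread behind the p-values may be technical. Their number limits the precision: the standard error (SE) of a difference between 2 groups was 0.17 log2 units for UFO and 0.16 for PUCHI.

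UFO read above the lower quartile of all probe sets on every array, at percentiles 32.0 to 59.6 of the array. PUCHI was dimmer, at percentiles 21.9 to 40.1, and lay under the lower quartile on 4 arrays, the day 0 arrays of lfy-12 and ft-2. For scale, the array medians of 15 probe sets for bacterial spike-in genes, which plants lack, were 3.58 to 3.77. The tests below come from limma, a linear model fitted over all 40 arrays, with Benjamini-Hochberg adjustment over all 22746 probe sets. A difference is said to be called when its adjusted p is under 0.05. The share of all probe sets called in the same comparison, in either direction, is given beside the first call as the background.

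UFO rose at the apex of both accessions and of lfy-12 during the week in long days, and no rise was called in co-2 or ft-2. In Ler it climbed at each sampling, to 3.71-fold over day 0. In Col it was 2.75-fold over day 0 at day 7, and no rise was called at day 3 or day 5. In lfy-12 it reached 1.88-fold.

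In Ler the UFO log2 signal was 5.43 and 5.86 on the 2 arrays of day 0, 6.42 and 6.21 on day 3, 7.14 and 6.86 on day 5, and 7.43 and 7.64 on day 7. No value of a later day overlapped one of an earlier day. Against day 0 the rise was 0.67 ± 0.17 log2 units at day 3 (SE, n = 2 arrays per day; 1.59-fold, adjusted p = 0.0148 by limma, with 7.73% of all probe sets called). At day 5 it was 1.36 (2.56-fold, adjusted p = 1.14e-06, 17.7% called) and at day 7 it was 1.89 (adjusted p = 1.09e-09, 22.7% called). The step from day 3 to day 5 was itself called (0.69, adjusted p = 0.0178, 3.47% called), while the step from day 5 to day 7 was 0.53 and not called (adjusted p = 0.106, 3.12% called). The day 5 and day 7 rises were called under every alternative tried. The day 3 rise was lost without Ler day 0 array 1 (0.45, adjusted p = 0.258) or Ler day 3 array 1 (0.56, adjusted p = 0.172), and the step from day 3 to day 5 without Ler day 3 array 2 (0.59) or Ler day 5 array 1 (0.55). Both of these calls were also lost when only Ler arrays were fitted (adjusted p = 0.0803 and 0.101).

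In Col the UFO signal was 5.28 and 5.41 at day 0, 5.84 and 5.84 at day 3, 5.39 and 5.66 at day 5, and 6.79 and 6.82 at day 7. The day 5 arrays overlapped those of day 0, and the day 7 arrays stood above all the others. The rise of 1.46 ± 0.17 by day 7 (adjusted p = 2.79e-07, 13.2% called) therefore fell almost whole between day 5 and day 7, a step of 1.28 (2.43-fold, adjusted p = 2.13e-05, 8.08% called). Both calls held under every alternative tried. The day 3 value was 0.50 above day 0, with no overlap of arrays, and the day 5 value 0.18 above it. Neither was called (adjusted p = 0.140 and 0.592, against 2.68% and 10.4% of all probe sets called).

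In lfy-12, UFO started at the level of Col, with 5.35 and 5.31 at day 0, and then read 6.04 and 5.70 at day 3, 5.88 and 5.98 at day 5, and 6.21 and 6.26 at day 7. All later arrays lay above the day 0 arrays, and the day 3 and day 5 arrays overlapped. The rise was 0.54 at day 3 (adjusted p = 0.0403, 10.5% called), 0.60 at day 5 (adjusted p = 0.0290, 6.99% called) and 0.91 ± 0.17 at day 7 (adjusted p = 0.000422, 12.8% called). The day 7 call held under every alternative. The day 3 rise was close in size to the 0.50 of Col, which was not called. The day 3 call was lost without lfy-12 day 0 array 1 (0.56), day 0 array 2 (0.52) or day 3 array 1 (0.37). The day 5 call needed all 4 of its arrays, and without 1 of them the rise was between 0.55 and 0.65 (adjusted p = 0.0869 to 0.198). One of those 4, lfy-12 day 5 array 2, carries the transcripts of the other background, and without the 3 arrays of that kind the day 5 rise was 0.55 (adjusted p = 0.120).

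In co-2, the UFO signal was 5.68 and 5.53 at day 0, 5.93 and 6.14 at day 3, 5.53 and 5.75 at day 5, and 5.87 and 6.04 at day 7. The day 5 arrays overlapped those of day 0. Differences from day 0 were 0.43, 0.04 and 0.35 at days 3, 5 and 7, and none was called (adjusted p = 0.209, 0.956 and 0.244), against 2.62%, 5.87% and 9.12% of all probe sets called.

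In ft-2, the signal was 6.06 and 5.47 at day 0, 6.06 and 6.20 at day 3, 6.23 and 5.83 at day 5, and 6.08 and 5.90 at day 7. Day 0 array 1 was as high as the later arrays, and it is 1 of the 3 arrays with transcripts of the other background. Differences from day 0 were 0.36, 0.26 and 0.22 and were not called (adjusted p = 0.318, 0.436 and 0.464), against 1.7%, 6.85% and 11.9% of all probe sets called. Without that array the differences at days 3, 5 and 7 were 0.66, 0.56 and 0.52, still not called (adjusted p = 0.0602, 0.0794 and 0.0807), and without ft-2 day 0 array 2 they were 0.069, -0.036 and -0.073.

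**Figure D1:**
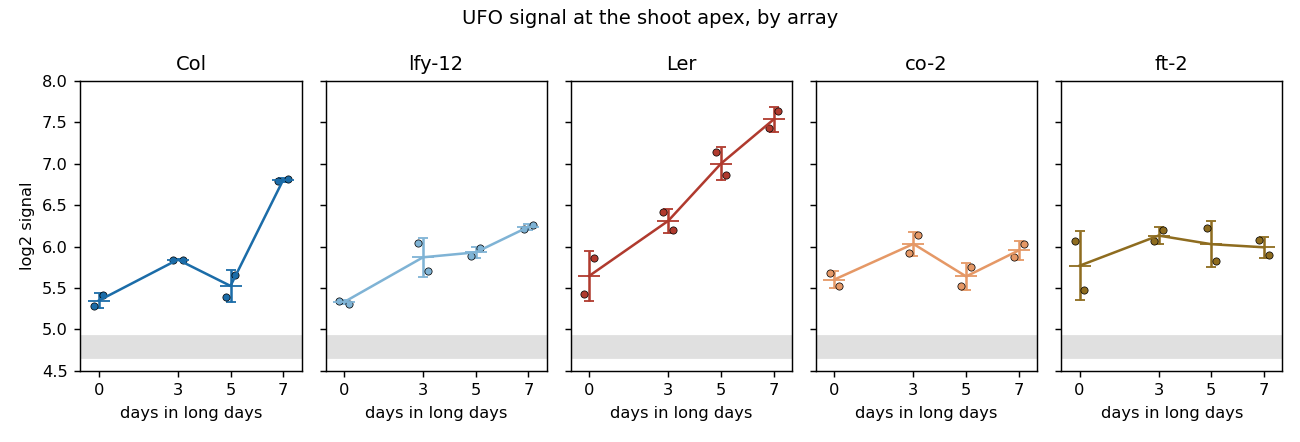
UFO log2 signal (vertical axis) against days in long days (horizontal axis) in 5 panels by genotype. Points are single arrays, the bar and whiskers are the mean and SD of 2 arrays, and the grey band is the range of the arrays' lower quartiles (4.66 to 4.92). By group mean, Ler climbs from 5.65 to 7.54 and Col jumps from 5.53 at day 5 to 6.81 at day 7. The means of co-2 and ft-2 stay between 5.60 and 6.13.

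Set out by group mean, UFO was highest in Ler at day 7 (7.54 ± 0.15, SD, n = 2 arrays), followed by Ler at day 5 (7.00 ± 0.20), Col at day 7 (6.81 ± 0.02) and Ler at day 3 (6.31 ± 0.15). It was lowest in Col and lfy-12 at day 0 (5.35 ± 0.09 and 5.33 ± 0.02). Among the 19 pairs of neighbours in this order, 15 overlapped in their array values. The other 4 were the steps among the top 4 groups and the step from lfy-12 at day 7 to ft-2 at day 3. Neighbours below the 5 highest groups all overlapped. Lack of overlap is not a call either: the difference of Ler at day 7 from Ler at day 5 was 0.53 and not called (adjusted p = 0.106 by limma). Overlap was not counted over all probe sets. Groups further apart in the order can still differ, as lfy-12 at day 3 and day 5 did from its day 0.

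Between genotypes on the same day, UFO was lower in co-2 and ft-2 than in Ler from day 5 on. At day 5 the means were 7.00 in Ler, 5.64 ± 0.16 in co-2 and 6.03 ± 0.28 in ft-2, with no overlap of either mutant with Ler. The difference was -1.36 ± 0.17 for co-2 (2.57-fold lower, adjusted p = 4.75e-06, 9.6% called) and -0.97 for ft-2 (1.96-fold lower, adjusted p = 0.000292, 11.3% called). At day 7 the differences were -1.58 for co-2 (2.99-fold, adjusted p = 8.52e-08, 16.9% called) and -1.54 for ft-2 (2.92-fold, adjusted p = 8.95e-08, 19.8% called). These 4 calls held under every alternative tried. At days 0 and 3 the differences from Ler were -0.04 and -0.28 for co-2 and 0.12 and -0.18 for ft-2, none of them called. Of all probe sets, 3.71% and 3.02% were called on those days for co-2, and 2.85% and 4.7% for ft-2.

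Between the accessions, UFO was 2.78-fold higher in Ler than in Col at day 5, when no rise was called in Col, and 1.66-fold higher at day 7. The log2 differences of Ler from Col were 0.30 at day 0 (adjusted p = 0.236, 22% called), 0.47 at day 3 (adjusted p = 0.0531, 20.1% called), 1.48 ± 0.17 at day 5 (adjusted p = 1.69e-07, 19.5% called) and 0.73 at day 7 (adjusted p = 0.00244, 17.8% called). The day 3 difference was called under 4 of the alternatives (0.47 to 0.52, adjusted p = 0.0292 to 0.0479). The day 7 call was lost without Ler day 7 array 2 (0.62, adjusted p = 0.0543), and the day 5 call held throughout.

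Between lfy-12 and Col no UFO difference was called on any day, where 1.96%, 1.99%, 2.29% and 3.2% of all probe sets were called on days 0, 3, 5 and 7. The 2 genotypes read within 0.03 log2 units of each other at days 0 and 3 (-0.02 and 0.03). At day 5 lfy-12 was the higher by 0.41 (95% interval 0.05 to 0.76, adjusted p = 0.246), with arrays of 5.88 and 5.98 against 5.39 and 5.66. At day 7 it was the lower by 0.57 (-0.92 to -0.22, adjusted p = 0.0701), with 6.21 and 6.26 against 6.79 and 6.82. On neither of these days did the arrays overlap. The day 7 difference became called when only Col and lfy-12 arrays were fitted (adjusted p = 0.0266) or without the 3 arrays with transcripts of the other background (adjusted p = 0.0401).

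PUCHI followed another course. In Col and lfy-12 it was highest at day 5 and lower again at day 7. In Ler its highest mean was at day 3, and in ft-2 it was highest at day 7. Its largest rise was 1.97-fold.

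In Col the PUCHI log2 signal was 4.81 and 5.23 at day 0, 5.23 and 5.30 at day 3, 6.05 and 5.94 at day 5, and 5.42 and 5.08 at day 7. The day 5 arrays stood above all other arrays of the genotype, and the day 7 arrays overlapped those of day 0. Day 5 was 0.98 ± 0.16 above day 0 (SE, n = 2 arrays per day; adjusted p = 0.000141, 10.4% of all probe sets called), under every alternative tried. It was also 0.73 above day 3 (1.66-fold, adjusted p = 0.0177, 1.81% called), and day 7 was lower than day 5 by 0.75 ± 0.16 (log2 difference -0.75, 1.68-fold, adjusted p = 0.00521). The calls of those steps were not firm. The first was lost without any 1 of its 4 arrays, though the step itself was still 0.67 to 0.79. The second was lost without Col day 5 array 1 (-0.69) or Col day 7 array 2 (-0.58). Days 3 and 7 were 0.25 and 0.23 above day 0, neither called (adjusted p = 0.593 and 0.460).

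In lfy-12 the same days stood out. The signal was 4.68 and 4.83 at day 0, 5.11 and 4.79 at day 3, 5.65 and 5.60 at day 5, and 5.14 and 5.07 at day 7. The day 5 arrays were again above all other arrays of the genotype, by 0.87 ± 0.16 over day 0 (1.83-fold, adjusted p = 0.000851), a call that held under every alternative, also without lfy-12 day 5 array 2. The step from day 3 to day 5 was 0.68 (1.60-fold, adjusted p = 0.0384, 0.972% called), and its call needed all 4 of its arrays (0.52 to 0.83 without 1 of them). It was also lost when only lfy-12 arrays were fitted (adjusted p = 0.0647) and without the 3 arrays with transcripts of the other background (0.70, adjusted p = 0.169). The fall from day 5 to day 7, -0.52, was not called (adjusted p = 0.159, 1.09% called), nor were the rises of 0.19 at day 3 and 0.35 at day 7.

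In Ler, PUCHI was 4.81 and 4.88 at day 0, 5.46 and 5.72 at day 3, 5.03 and 5.34 at day 5, and 5.38 and 5.52 at day 7. All later arrays lay above those of day 0. The rise was 0.75 ± 0.16 at day 3 (1.68-fold, adjusted p = 0.00418), 0.34 at day 5, which was not called (adjusted p = 0.166), and 0.61 at day 7 (1.52-fold, adjusted p = 0.00670). The dip between days 3 and 7 was not resolved: neither the step from day 3 to day 5 (-0.40, adjusted p = 0.233) nor that from day 5 to day 7 (0.27, adjusted p = 0.685) was called. The day 3 call was lost without Ler day 3 array 2 (0.62, adjusted p = 0.0756), and the day 7 call without Ler day 0 array 1 (0.57) or Ler day 7 array 2 (0.54).

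In co-2, PUCHI read 4.77 and 4.83 at day 0, 5.28 and 4.91 at day 3, 5.21 and 4.96 at day 5, and 4.85 and 5.38 at day 7. The differences from day 0 were 0.30, 0.29 and 0.32, with every later array above the day 0 arrays and none of the differences called (adjusted p = 0.407, 0.394 and 0.284).

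In ft-2, PUCHI read 4.59 and 4.66 at day 0, 5.06 and 5.01 at day 3, 5.04 and 4.85 at day 5, and 5.31 and 5.26 at day 7. The day 7 arrays were the highest of the genotype, 0.66 ± 0.16 above day 0 (1.58-fold, adjusted p = 0.00784, 11.9% called). That call was lost without ft-2 day 7 array 1 (0.64, adjusted p = 0.0615) or array 2 (0.68, adjusted p = 0.0522). UFO in the same arrays of ft-2 showed no called rise, and days 3 and 5 were 0.41 and 0.32 for PUCHI, not called.

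**Figure D2:**
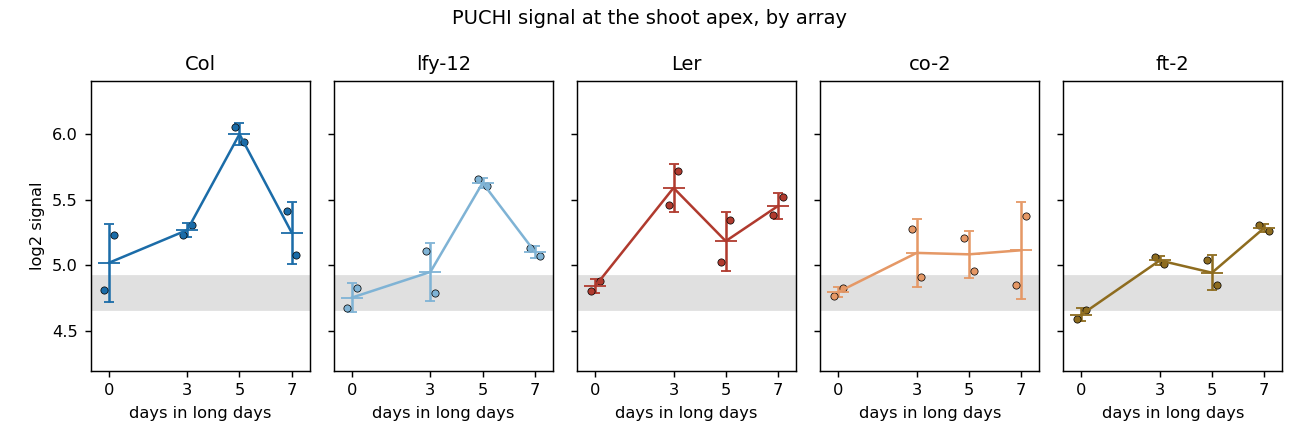
PUCHI log2 signal (vertical axis) against days in long days (horizontal axis) in 5 panels by genotype, with points, means, SDs and the grey band of lower quartiles as for UFO. Day 5 is the highest day in Col (6.0) and lfy-12 (5.63), and day 3 has the highest mean in Ler (5.59). All day 0 arrays but Col day 0 array 2 lie in or under the band, as do some later arrays of lfy-12, co-2 and ft-2.

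In the order of group means, PUCHI was highest in Col at day 5 (6.0 ± 0.08, SD, n = 2 arrays), then in lfy-12 at day 5 (5.63 ± 0.04) and in Ler at day 3 (5.59 ± 0.18). It was lowest in ft-2 at day 0 (4.63 ± 0.05). Of its 19 pairs of neighbours, 16 overlapped. The 3 that did not were Col at day 5 over lfy-12 at day 5, Ler at day 7 over ft-2 at day 7, and lfy-12 at day 0 over ft-2 at day 0.

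Fewer differences between genotypes were called for PUCHI. On day 5 it was lower in Ler than in Col by 0.81 ± 0.16 (log2 difference -0.81, 1.76-fold, adjusted p = 0.000492), on the day on which UFO was 1.48 higher in Ler. The Ler arrays of 5.03 and 5.34 did not overlap the Col arrays of 6.05 and 5.94, and the call held under every alternative. On days 0, 3 and 7 the differences of Ler from Col were -0.18, 0.32 and 0.20, none called. The opposite signs of the 2 genes at day 5 were each called on the same 4 arrays.

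Against Ler, PUCHI in ft-2 was called lower at day 3 (-0.55 ± 0.16, 1.47-fold, adjusted p = 0.0495). The call was lost whichever of the 4 arrays was left out (-0.68 to -0.42, adjusted p = 0.0767 to 0.318) and in a fit with the replicate number as a block. On days 0, 5 and 7 the differences were -0.22, -0.24 and -0.17. For co-2 they were -0.04, -0.49 (adjusted p = 0.0945), -0.10 and -0.34 (adjusted p = 0.169) on days 0, 3, 5 and 7, not called. After quantile normalization the day 3 and day 7 differences of co-2 were called (-0.56 and -0.44), and the day 7 difference was also called without co-2 day 7 array 2 (-0.60). The co-2 and ft-2 differences share the Ler arrays.

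PUCHI in lfy-12 lay below Col on all 4 days, by -0.26, -0.32, -0.37 and -0.15, and none of these was called. The day 5 difference had a 95% interval of -0.71 to -0.03. Over both genes, the comparisons of lfy-12 with Col, on single days and in the responses from day 0, made 12 tests with 0 called by limma, 4 of them with an unadjusted p under 0.05 and the lowest adjusted p at 0.0701. Of all probe sets, 1.96% to 3.2% were called on single days, and 0.0879% and 0.224% in the responses by days 5 and 7.

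co-2 and ft-2 were not told apart by either gene. Over both genes, 12 tests of ft-2 against co-2 gave 0 calls by limma and 1 unadjusted p under 0.05, with log2 differences of -0.17 to 0.39 and 95% intervals reaching from -0.63 to 0.82. Few probe sets of any kind were called in these comparisons: 1.48%, 0.149%, 0.154% and 0.237% on days 0, 3, 5 and 7, and 0.044% and 0.0044% in the responses by days 5 and 7. At day 0, 8 tests between genotypes gave 0 calls and 0 unadjusted p under 0.05, where 1.96% (lfy-12 against Col), 3.71% (co-2 against Ler), 2.85% (ft-2 against Ler) and 22% (Ler against Col) of all probe sets were called, with differences of -0.26 to 0.30 and intervals from -0.60 to 0.65. The steps from day 3 to 5 and from day 5 to 7 within co-2 and ft-2 made 8 tests with 0 calls and 2 unadjusted p under 0.05, between -0.39 and 0.34, where 0.484% and 0.479% of all probe sets were called in co-2 and 0.0528% and 0.158% in ft-2.

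Whether a gene responded differently between genotypes was tested as the difference of the 2 responses, each counted from day 0. UFO rose less in co-2 than in Ler, with a difference of -1.32 ± 0.24 log2 units by day 5 (SE, n = 2 arrays per group; adjusted p = 0.00271, 1.38% called) and of -1.54 by day 7 (adjusted p = 0.000105, 5.39% called). It rose less in ft-2 than in Ler by day 5 (-1.10, adjusted p = 0.0111, 1.93% called) and by day 7 (-1.67, adjusted p = 1.89e-05, 7.17% called). It rose more in Ler than in Col by day 5 (1.18, adjusted p = 0.0127, 0.989% called), and the difference of 0.43 by day 7 was not called (adjusted p = 0.542, 1.75% called). The day 7 differences of both mutants from Ler held under every alternative.

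The day 5 differences in the UFO response were less firm. That of ft-2 from Ler was lost without Ler day 0 array 1 (-0.88), Ler day 5 array 1 (-0.96), ft-2 day 0 array 1 (-0.80) or ft-2 day 5 array 2 (-0.90). That of Ler from Col was lost without Col day 0 array 2 (1.12), Col day 5 array 1 (1.04), Ler day 0 array 1 (0.96) or Ler day 5 array 1 (1.04). That of co-2 from Ler was lost in 1 alternative, when the response was counted from day 3 (-1.08, adjusted p = 0.0532).

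The UFO response of lfy-12 was not called different from that of Col, at 0.42 by day 5 (95% interval -0.07 to 0.92, adjusted p = 0.545, 0.0879% called) and -0.55 by day 7 (-1.05 to -0.05, adjusted p = 0.794, 0.224% called). The step from day 5 to day 7, 1.28 in Col and 0.31 in lfy-12, differed by -0.97 (-1.47 to -0.48, adjusted p = 0.352, 0.0484% called). This step comparison is 1 of 15 differences in response that were added after the values had been seen. Of the 30 added tests over both genes, 1 was called and 9 had an unadjusted p under 0.05. Of all probe sets, between 0% and 0.998% were called in these comparisons.

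The called one was PUCHI between the accessions from day 3 to day 5, over which it rose by 0.73 in Col and moved by -0.40 in Ler (difference -1.13 ± 0.23, adjusted p = 0.0436, 0.0967% called). The call was lost in 11 of the 15 alternatives, with values from -1.26 to -0.97 and adjusted p up to 0.577. Those 11 include each of 7 single arrays left out: Col day 3 array 1 (-1.10), Col day 3 array 2 (-1.17), Col day 5 array 1 (-1.07), Col day 5 array 2 (-1.19), Ler day 3 array 1 (-1.26), Ler day 3 array 2 (-1.0) and Ler day 5 array 1 (-0.97). From day 5 to day 7 the difference was 1.01 and not called (adjusted p = 0.0601, 0.242% called), but was called after quantile normalization (1.04), with a floor at each array's lower quartile (1.01) and without Ler day 5 array 2 (1.17). No other difference in the PUCHI response was called. By day 5 these stood at -0.11 for lfy-12 against Col, -0.06 and -0.02 for co-2 and ft-2 against Ler, and -0.63 for Ler against Col (95% interval -1.11 to -0.16, adjusted p = 0.232).

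**Figure D3:**
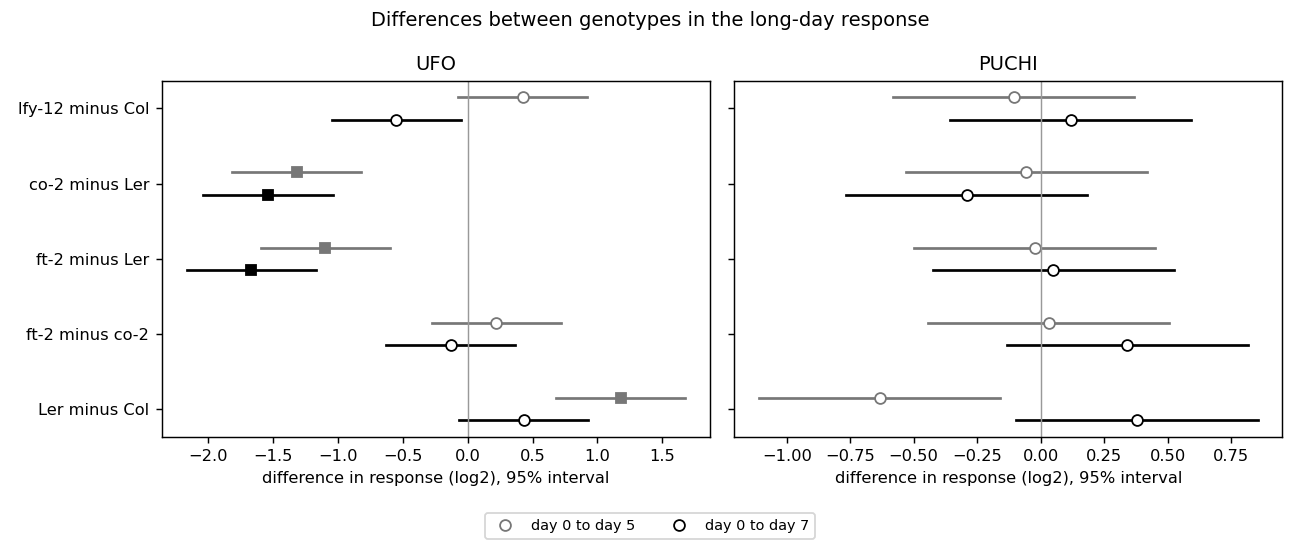
Difference between 2 genotypes in the log2 response from day 0 to day 5 (grey) and to day 7 (black), for UFO (left) and PUCHI (right), with 95% intervals from limma; the horizontal scales differ. Filled squares are called at adjusted p under 0.05 and open circles are not. For UFO, co-2 and ft-2 lie at -1.10 to -1.67 against Ler, and no PUCHI difference from day 0 is called.

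By group mean, the 2 genes differed in the days on which they were highest, and no test compared the genes with each other. Over the 20 group means, which share arrays and the fit, the Pearson correlation of UFO with PUCHI was 0.29, and 0.27 after the mean of each genotype was taken out. In Col, PUCHI was highest at day 5, when UFO stood at 5.53, and UFO was highest at day 7. In Ler, PUCHI had its highest mean at day 3, where UFO had covered 0.67 of its rise of 1.89 log2 units. Neither step of PUCHI in Ler after day 3 was called. Whether PUCHI moved before UFO in single meristems cannot be read from bulk apices sampled on 4 days.

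**Figure D4:**
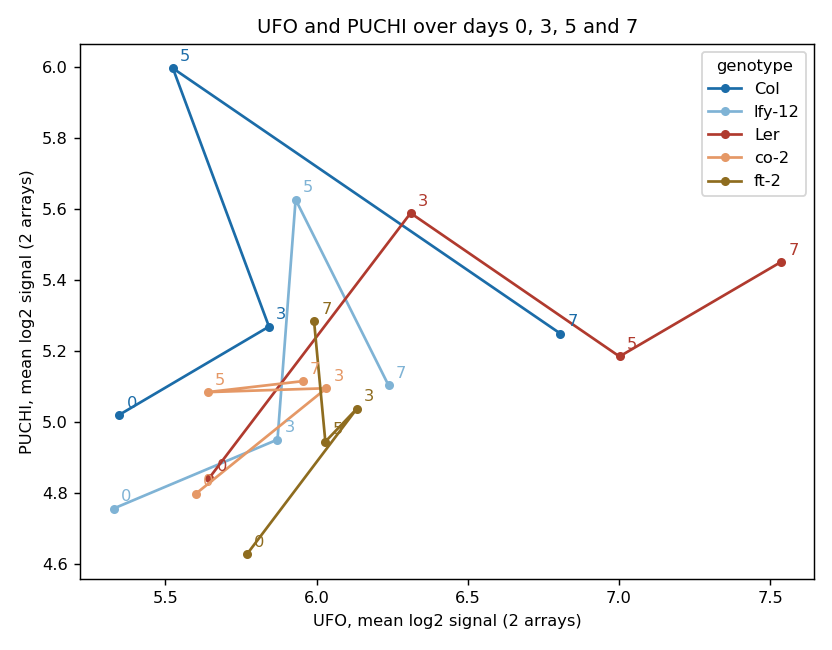
Mean PUCHI log2 signal (vertical axis) against mean UFO log2 signal (horizontal axis), 2 arrays a point, joined in order of days 0, 3, 5 and 7 for each genotype. Col is highest on the PUCHI axis at day 5 (6.0) and on the UFO axis at day 7 (6.81), and Ler is highest on the PUCHI axis at day 3 (5.59) and on the UFO axis at day 7 (7.54).

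The genes that surround UFO and PUCHI in floral development were covered thinly by the annotation. Of 61 genes in 7 lists, the annotation names a probe set of its own for 10. These were AGL24 (a MADS-box promoter of flowering) and FD (a bZIP factor that works with FT), 2 of 14 floral meristem identity regulators, and SPL/NZZ (a regulator of sporogenesis), 1 of 10 organ identity genes. LEP, an AP2/ERF gene, was 1 of 3 relatives of PUCHI. YAB3 (organ polarity), LAS (a GRAS regulator of axillary meristems) and YUC4 (an auxin biosynthesis enzyme) were 3 of 14 primordium and boundary genes. CLV3, the peptide signal of the stem cells, was 1 of 9 meristem markers. LHCB4.1, a light-harvesting protein, and RCA, Rubisco activase, were 2 of 7 markers of leaf tissue. For the 4 ubiquitin ligase partners of UFO, the annotation used here names no probe set of their own.

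Against day 0, the 10 genes gave 2 higher and 0 lower in Col at day 5, against 4.45% higher and 5.99% lower over all probe sets. At day 7 they gave 1 higher and 1 lower in Col (7.15% and 6.08% of all probe sets) and 2 higher and 1 lower in lfy-12 (7.74% and 5.08%). The day 7 counts were 3 higher and 4 lower in Ler (11.8% and 10.9%), 1 higher and 0 lower in co-2 (3.6% and 5.52%), and 3 higher and 2 lower in ft-2 (5.25% and 6.65%). The median log2 difference of the 10 at day 7 was -0.01 in Col, -0.08 in lfy-12, -0.09 in Ler, 0.06 in co-2 and 0.20 in ft-2. Over all probe sets it was 0.01, -0.01, 0.04, 0.02 and 0.04.

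FD rose in every genotype by day 7, by 0.89 ± 0.14 in Col, 1.04 in lfy-12, 1.22 in Ler, 0.72 in co-2 and 1.12 in ft-2 (SE, n = 2 arrays per day; adjusted p from 5.52e-08 to 0.000601). These calls held with any 1 array of the contrast left out. FD was thus called higher in the pair of mutants in which no UFO rise was called. Among the 4 Col groups AGL24, like PUCHI, was highest at day 5: it was 0.40 ± 0.08 above day 0 at day 5 (adjusted p = 0.00134) and fell by 0.31 from day 5 to day 7 (adjusted p = 0.0188). The rise held with any 1 array left out, and the fall was lost whichever of the 4 was left out (-0.32 to -0.29). In Ler, AGL24 fell by 0.51 over that step (adjusted p = 0.000133), where PUCHI moved by 0.27, and this call held with any 1 array left out. LAS rose in Ler at day 5 (0.57, adjusted p = 0.00513) and day 7 (0.70, adjusted p = 0.000503), and in ft-2 at day 7 (0.45, adjusted p = 0.0390). Of these, the Ler day 5 call was lost without Ler day 0 array 1 (0.44) or Ler day 5 array 2 (0.44), and the ft-2 call whichever array was left out (0.41 to 0.49). YUC4 fell by day 7 in the genotypes in which UFO rose, by 0.67 in Col, 0.49 in lfy-12 and 0.41 in Ler (adjusted p = 0.000370, 0.0116 and 0.0202). The Col call held with any 1 array left out. The lfy-12 call was lost without lfy-12 day 0 array 2 (-0.36) or either day 7 array (-0.47 and -0.50), and the Ler call without Ler day 0 array 2 (-0.26) or either day 7 array (-0.38 and -0.45).

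LEP, the relative of PUCHI, was not called in any comparison, and its highest Col mean was also at day 5 (5.57 ± 0.21, SD, n = 2 arrays, against 5.13 ± 0.12 at day 0). CLV3 was not called either, with group means of 5.51 to 6.18. The leaf markers were bright on all arrays, with group means of 11.77 to 12.56 for LHCB4.1 and 10.75 to 12.48 for RCA. Both fell where UFO rose most: in Ler LHCB4.1 fell by 0.53 at day 5 and by 0.64 at day 7, and RCA fell by 1.24 and by 0.94. The LHCB4.1 calls in Ler held with any 1 array left out (at day 5, -0.28 without Ler day 0 array 1, and at day 7, -0.39). The RCA values rest on Ler day 0 array 1, which read 12.76 against 11.21 on array 2. Without it they were -0.46 and -0.17, neither called, and the day 7 call was also lost without Ler day 7 array 2 (-0.75). Both markers were also called lower in ft-2, where no UFO rise was called, at day 5 and at day 7 (by 0.43 and 1.31 at day 7). The day 5 calls were lost without ft-2 day 0 array 2 (-0.32 and -1.04) or ft-2 day 5 array 1 (-0.33 and -0.99). That of LHCB4.1 was also lost without ft-2 day 5 array 2 (-0.42). The day 7 calls of both were lost without ft-2 day 0 array 2 (-0.38 and -1.15) or ft-2 day 7 array 2 (-0.39 and -1.18). Neither marker was called against day 0 in Col, lfy-12 or co-2. Their part in the results was not tested.

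**Figure D5:**
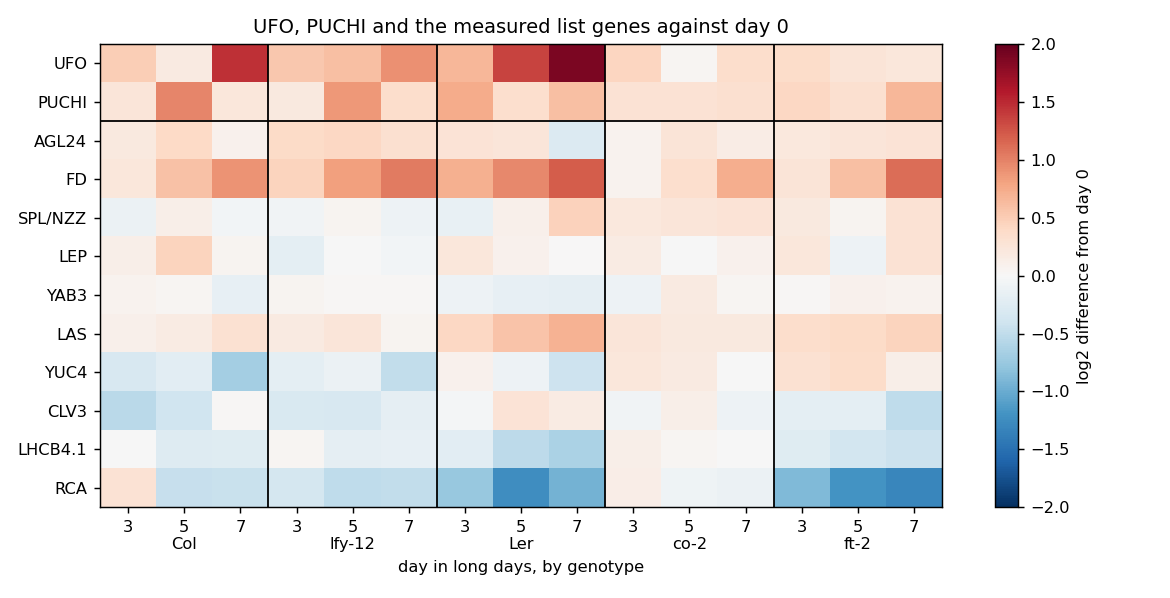
Log2 difference from day 0 (colour, red higher and blue lower) at days 3, 5 and 7 in each genotype, for UFO, PUCHI and the 10 measured list genes. UFO is darkest in Ler at day 7 (1.89), PUCHI in Col at day 5 (0.98), and FD is red in all 5 genotypes at day 7 (0.72 to 1.22).

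Likeness was sought among 6894 probe sets that list 1 gene and whose group means spanned at least 0.5 log2 units. Those most like UFO over the 20 group means were AT3G12470 (Pearson 0.93), LHCB4.3 (0.92), a light-harvesting protein, AT1G02070 (0.91), IQD26 (0.91), a calmodulin-binding family member, and AT4G14695 (0.91). Each of these 5 had its highest mean in Ler at day 7. Those most like PUCHI were AT1G48200 (0.82), AT5G16420 (0.80), AT4G35210 (0.78), UBC19 (0.76), a ubiquitin-conjugating enzyme, and AT3G11350 (0.76). Of these, 4 peaked in Col at day 5, as PUCHI did, and UBC19 in Ler at day 5. AT4G35210 had group means of 3.52 to 4.05, about the level of the bacterial probe sets. The lists are not stable: with Spearman's rank correlation 1 of the 5 UFO genes (LHCB4.3) and 0 of the 5 PUCHI genes stayed among the top 5. With genotype means taken out, 1 stayed in each list (IQD26 and AT5G16420). Of the list genes, FD correlated best with UFO (0.69) and with PUCHI (0.57), and UFO ran opposite to LHCB4.1 (-0.75). With genotype means taken out, LAS came first for UFO (0.79) and LEP for PUCHI (0.69), ahead of FD (0.74 and 0.64). These correlations describe 20 points that share arrays and carry no test.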

How the data were processed

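The authors deposited 1 value per probe set and array for 40 arrays of shoot apex RNA. Their unit and normalization are not given in the sources used here. Values ran from 3.03 to 13.63 and were taken as log2 signal, as deposited, because a natural antilog of the highest would exceed the 65535 of a 16-bit scanner. The 64 control probe sets were left out of 22810.

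Groups came from the sample titles. limma 3.58.1 in R 4.3.3 fitted 20 group means (20 residual degrees of freedom) with an intensity trend, two-sided, in 70 contrasts, 15 of them added after the values were seen. The steps were run on simulated data with independent noise and changes placed only in Ler at day 7. Effects shared by arrays and the arrays with transcripts of the other background were not simulated. The smallest p an exact permutation test can give for 2 against 2 arrays is 0.333. Replicate numbers were not taken as pairs, since the correlations of their deviations were not all above 0.1. That rule cannot show that the arrays were unpaired.

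Genes were named from the platform's list and RefSeq names, for probe sets listing 1 gene. Where several did, list genes were read from the brightest and the most alike genes from the best correlated. The 2 members, the lists and the named genes (all measured list genes and the 5 most alike) were chosen with earlier results of these data known. Alternatives were quantile normalization, a floor, a filter, no trend, fewer genotypes, a replicate block and single arrays left out (for list genes, added after the values were seen).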

Additional observations from a re-analysis of the deposited data

Results flagged for a closer look

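In all, 6 differences in response between genotypes passed the test of the difference itself. Of all probe sets, 0.0967% to 7.17% were called in the same comparisons. For UFO, the rise from day 0 was smaller in co-2 than in Ler by day 5 (-1.32 ± 0.24 log2 units, adjusted p = 0.00271) and by day 7 (-1.54, adjusted p = 0.000105). It was also smaller in ft-2 than in Ler by day 5 (-1.10, adjusted p = 0.0111) and by day 7 (-1.67, adjusted p = 1.89e-05). It was larger in Ler than in Col by day 5 (1.18, adjusted p = 0.0127). For PUCHI, the change from day 3 to day 5 differed between Ler and Col (-1.13 ± 0.23, adjusted p = 0.0436), in a comparison added after the values were seen. The mutant comparisons share the Ler arrays. Only the day 7 differences kept their call under every alternative. The UFO call by day 5 was lost in 1 of 16 alternatives for co-2 against Ler and in 7 of 16 for ft-2 against Ler. It was lost in 5 of 16 for Ler against Col, and the PUCHI call was lost in 11 of 15. Groups of 2 arrays were too small for a test of single arrays that stand apart.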

How the results depend on the processing

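Of 88 differences tested singly for UFO and PUCHI, 31 were called. The 88 leave out ft-2 against co-2, the steps in co-2 and ft-2, the genotypes at day 0 and most added responses. None of the tests left out was called. Over all tests of the 2 genes, 30 of 110 planned and 1 of 30 added ones were called. Of all probe sets, 0.0044% to 22.7% were called in planned comparisons and 0% to 0.998% in added ones. None of the 31 changed sign under any alternative, and 15 kept their call under all of them. Over all differences and alternatives, 972 of 1072 values kept direction and side of the threshold. That count includes differences that were not called to begin with. The filter, the fit without trend, fewer genotypes and the replicate block cannot move a difference itself, nor can the floor for UFO. There only the call could change.

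Quantile normalization called PUCHI in lfy-12 at day 7 (0.45, adjusted p = 0.0383). For the day 7 response of ft-2 against Ler, PUCHI was -0.028 with it and -0.10 with a floor at the lower quartile, against 0.05 as reported. Fitting only the compared genotypes ended 5 calls: UFO in Ler at day 3 (0.67, adjusted p = 0.0803), UFO in Ler from day 3 to day 5 (0.69), UFO in the day 5 response of ft-2 against Ler (-1.10, adjusted p = 0.0828), PUCHI in lfy-12 from day 3 to day 5 (0.68) and PUCHI between Ler and Col from day 3 to day 5 (-1.13, adjusted p = 0.190). Without the 3 arrays with transcripts of the other background, 4 calls were lost: UFO in lfy-12 at day 5 (0.55) and in that same response (-0.80), and PUCHI in lfy-12 (0.70) and between Ler and Col (-1.13) from day 3 to day 5. Counting responses from day 3 gave UFO differences by day 5 of -1.08 (co-2 against Ler), -0.79 (ft-2 against Ler) and 1.01 (Ler against Col), none called. For PUCHI it gave 0.39, 0.31 and -1.13 by day 5, of which the last was called, and 0.16 (co-2 against Ler) and -0.12 (Ler against Col) by day 7.

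The fit with the replicate number as a block ended 2 calls, PUCHI in ft-2 against Ler at day 3 (-0.55, adjusted p = 0.0519) and PUCHI between Ler and Col from day 3 to day 5 (-1.13, adjusted p = 0.0533), and changed no other call of the 88. It moved the number of probe sets called from day 3 to day 5 in ft-2 from 12 to 19. The arrays of 14 of 20 groups correlated on median better with the same number than with the other. Of pairs of groups, 27.4% exceeded 0.1, with correlations from -0.50 to 0.40. The numbers were not taken as pairs, and whether they pair the arrays was not settled.

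With 1 array left out, UFO ranged from 0.37 to 0.71 (day 3) and 0.55 to 0.65 (day 5) in lfy-12, from 0.45 to 0.88 in Ler at day 3, from -0.075 to 0.15 in co-2 at day 5, and from 0.069 to 0.66 (day 3), -0.036 to 0.56 (day 5) and -0.073 to 0.52 (day 7) in ft-2. It ranged from -0.14 to 0.20 for lfy-12 against Col at day 3, from -0.11 to 0.23 for lfy-12 from day 3 to day 5, and in the day 5 responses from -1.39 to -0.80 (ft-2 against Ler) and 0.96 to 1.39 (Ler against Col). PUCHI ranged from 0.62 to 0.88 (day 3) and 0.54 to 0.68 (day 7) in Ler and from 0.62 to 0.69 in ft-2 at day 7. It ranged from -0.31 to 0.021 for lfy-12 against Col at day 7 and from -0.26 to 0.058 for co-2 against Ler at day 5. In the responses PUCHI ranged from -0.32 to 0.10 (day 5) and -0.091 to 0.33 (day 7) for lfy-12 against Col, from -0.22 to 0.10 for co-2 against Ler at day 5, and from -0.18 to 0.13 (day 5) and -0.019 to 0.12 (day 7) for ft-2 against Ler.

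The numbers of probe sets called moved by over 1.5 times in most comparisons when single arrays were left out. Against day 0, the lowest counts at day 3 were 208 of 610 in Col, 708 of 2388 in lfy-12, 672 of 1758 in Ler, 69 of 595 in co-2 and 47 of 386 in ft-2. At day 5 they were 1192 of 2375, 707 of 1589, 2330 of 4029, 531 of 1336 and 342 of 1557, and at day 7 they were 1976 of 3011, 1634 of 2915, 3355 of 5162, 924 of 2074 and 1138 of 2707, in the same order. From day 3 to day 5, 411 became 96 in Col, 221 became 46 in lfy-12, 789 became 295 in Ler, and 110 became 5 or 688 in co-2, and from day 5 to day 7 in Col 1838 became 304. At day 5, 2183 became 755 for co-2 against Ler and 2575 became 1165 for ft-2 against Ler, and at day 7, 3837 became 2221 and 4502 became 2794. For responses by day 5, 313 became 116 or 1312 (co-2 against Ler), 439 became 216 (ft-2 against Ler) and 225 became 51 or 1041 (Ler against Col).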
